A study of Arabidopsis thaliana with 30 samples.

Results

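These data describe how rnmt1-3 seedlings of Arabidopsis thaliana responded to abscisic acid (ABA), as 6 of the 30 RNA-seq libraries of the study. The libraries were chosen by their labels alone, the genotype rnmt1 with the treatment ABA (3 libraries) or Mock (3 libraries), and the study's methods give the allele as rnmt1-3. All plants were whole seedlings of 5 days, moved into liquid MS medium with 50 µM ABA or without it for 3 h. RNMT1 is the enzyme that methylates the guanosine cap of messenger RNA, and rnmt1-3 is a knockdown allele that retains part of its function, whereas full loss is lethal to the embryo. It is a single mutant line, so effects of RNMT1 and of other differences carried by the line cannot be told apart. The genotypes used for comparison each had 3 mock and 3 ABA libraries of the same age and dose: WT (Col-0), the T-DNA mutant dxo1, and dxo1/cDXO1, which is dxo1 carrying the C-terminal catalytic part of DXO1 under the DXO1 promoter. A further line, dxo1/NTE (dxo1 carrying the N-terminal extension of DXO1 under the same promoter), supplied a gene set only.

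ABA is the hormone that plants make under drought and salt stress and during seed maturation. Soluble receptors of the PYR/PYL family bind it and then hold clade A type 2C protein phosphatases (PP2Cs) inactive, which releases SnRK2 kinases. The kinases phosphorylate bZIP factors of the ABF and ABI5 group, which bind the ABA-responsive element (ABRE) in promoters and raise genes for dehydrins, other late embryogenesis abundant (LEA) proteins and osmolyte enzymes. The m7G cap protects messenger RNA at its 5′ end and recruits translation factors, and DXO1 is known to activate RNMT1 in plants.

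The 6 libraries held between 19926794 and 23249299 counts, and the Pearson r of log2 CPM between libraries of one treatment ran from 0.988 to 0.991. In WT, mock replicate 1 stood apart, with r of 0.967 to both other WT mock libraries, while these had r of 0.99 to each other, so the counts, scores and group medians set against WT are given with and without it. RNMT1 itself was at 15.3, 14.8 and 14 CPM (counts scaled to library size) in mock and 15.7, 16.8 and 15.6 CPM after ABA. The ABA libraries lay just above the mock libraries, and the difference did not pass the test (log2 fold change 0.14, SE 0.10, adjusted p = 0.335). In WT it was at 22.2, 17.7 and 17.7 CPM in mock and at 18.5, 15.9 and 17.2 CPM after ABA. The rnmt1-3 libraries thus lay below those of WT in mock and overlapped with them after ABA, and since a count per gene does not show where the allele is changed, these values are no full check of the mutation. As seedling markers, the small subunit gene RBCS1A was at 9858 to 10910 CPM in all 6 libraries, and the endodermal gene CASP1 and the stele gene SHR at 11.8 to 20.2 CPM. The seed genes CRA1 and OLEO1 were at or below 0.204 CPM. Of 3 shoot markers RBCS1B fell slightly (-0.23) and of 3 root markers SHR (-0.36), the others were not called. These calls were lost in 4 (adjusted p up to 0.205) and 3 (up to 0.0646) of 11 alternatives, and their part in the results below was not tested. Since whole seedlings were used, fewer cells of a type and less RNA per cell cannot be told apart.

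ABA changed 5263 genes in rnmt1-3 (26.1% of those tested), with more and larger rises than falls. Of 20140 genes tested, 2961 (14.7%) rose and 2302 (11.4%) fell, where rose and fell mean a p under 0.05 in edgeR's quasi-likelihood test after adjustment across the tested genes by the method of Benjamini and Hochberg. With a change over 2-fold required as well, 1003 genes (4.98%) rose and 494 (2.45%) fell. The large changes lay mostly on one side: 351 genes rose and 91 fell over 4-fold, 170 and 11 over 8-fold, and 38 and 1 over 64-fold. The median log2 fold change of all tested genes was -0.01.

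**Figure D1:**
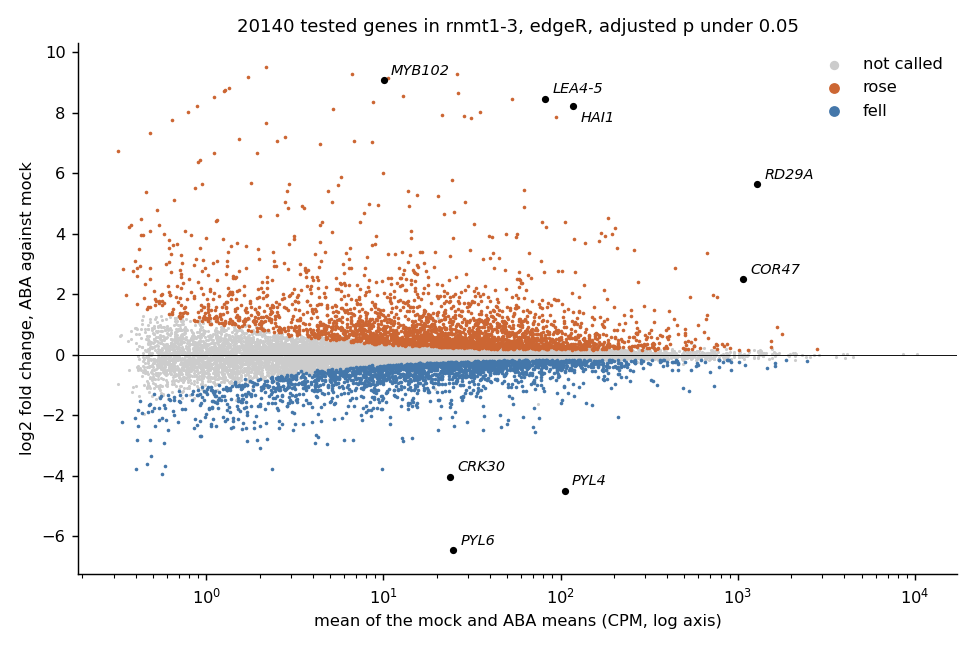
Log2 fold change of each of the 20140 tested genes in rnmt1-3 (y axis, ABA against mock) against its mean level (x axis, CPM, log scale), orange for genes that rose, blue for genes that fell and grey for genes not called. RD29A and COR47 sit far to the right among the rises, and PYL6, PYL4 and CRK30 lie lowest among the genes of high level.

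The genes that rose over 2-fold made up 1.32% to 1.36% of all counts in the mock libraries and 4.61% to 4.86% after ABA. Those that fell over 2-fold went from 1.15% to 1.22% down to 0.42% to 0.445%. Both are descriptions, since the same libraries chose these genes. The single gene RD29A took 0.235% to 0.247% of all counts after ABA. The risers were low in mock seedlings, with a median level of 3.31 TPM (counts scaled to exon length and library size) against 14.8 TPM over all tested genes, and 144 of the 1003 had at most 10 counts in every mock library. Of all tested genes 157 had so few, and the count filter kept such genes mainly through their ABA libraries. The low mock level of the risers thus comes in part from how they were chosen. Both risers and fallers held more genes with a single annotated exon block than the tested genes as a whole, 27.4% and 29.8% against 16.3% with 1 block. Their median exon lengths were 1590 and 1707 bases, against 1774.

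The ABA receptors moved mostly downwards. Of the 14 PYR/PYL genes 9 had enough counts to be tested, and of these 7 fell and 2 rose, with a median log2 fold change of -0.83. This count and those of the groups below are to be read against 14.7% of all tested genes that rose and 11.4% that fell. PYL4 was at 200, 214 and 194 CPM in mock and at 8.05, 8.93 and 9.85 CPM after ABA. All ABA libraries lay far below all mock libraries (log2 fold change -4.49, SE 0.08, adjusted p = 7.37e-15). PYL6 was at 57, 43.2 and 47.2 CPM in mock and at 0.543, 0.543 and 0.573 CPM after ABA. It was the 1 gene that fell over 64-fold, down to 11 or 12 counts per library (log2 fold change -6.45, SE 0.17, adjusted p = 3.15e-13). PYL5 went from 138, 117 and 114 CPM to 20, 21.8 and 20.9 CPM (-2.55). PYR1 went from 187, 167 and 160 CPM to 62.4, 68.1 and 69.2 CPM (-1.35). These 4 genes are receptors of the same family, and in none of them did the treatments overlap. Since the smallest exact p of 3 libraries against 3 is 0.1, a lack of overlap alone says little, here and for genes below.

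The remaining receptors changed less. PYL1 fell by 0.81 and PYL8 by 0.44 on the log2 scale. PYL8, which was at 204, 205 and 190 CPM in mock, remained at 145, 141 and 151 CPM after ABA. PYL8 was thus the receptor with the highest level left after ABA, at 125 TPM against 80.9 TPM for PYR1 and 21.3 TPM for PYL5. PYL2 also passed as a fall (-0.83, adjusted p = 0.0367), although its libraries held only 1.56 to 4.53 CPM and the call was lost without mock replicate 3, without ABA replicate 1, without ABA replicate 3 and in the fit over all 30 libraries. In the other direction, PYL7 went from 5.97, 5.04 and 5.28 CPM to 10.8, 12.2 and 16.2 CPM (log2 fold change 1.27, SE 0.16, adjusted p = 1.87e-05). PYL9 rose from 10.7, 6.19 and 9.11 CPM to 12.4, 16.1 and 16.3 CPM (0.79). PYL3, PYL10, PYL11, PYL12 and PYL13 had at most 4 counts in any library and were not tested.

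The PP2C phosphatases, the partners that the receptors inhibit, moved the opposite way. All 8 tested members of the clade rose over 2-fold, with a median log2 fold change of 4.43. ABI1 was at 45.5, 42.8 and 40.8 CPM in mock and at 464, 482 and 472 CPM after ABA (log2 fold change 3.47, SE 0.06, adjusted p = 7.37e-15). HAB1 (3.74), PP2CA (3.99) and ABI2 (4.87) rose by similar or larger factors. HAB2 had the smallest rise, from 25.6, 32.2 and 28.4 CPM to 81.3, 77.8 and 91 CPM (1.55). The HAI genes, named for being highly ABA-induced, came from near zero. HAI1 was at 0.51, 0.864 and 0.968 CPM in mock and at 237, 205 and 261 CPM after ABA (log2 fold change 8.21, SE 0.15, adjusted p = 7.37e-15). HAI2 went from 0, 0.096 and 0.264 CPM to 45.8, 51 and 60.5 CPM (8.64), and HAI3 from 0, 0.096 and 0 CPM to 21.9, 18.9 and 22.3 CPM. For HAI3 the summed counts give a ratio of 665 with a 95% counting interval of 184 to 5495. AHG1, known from seeds, had no count in mock and 8, 4 and 6 counts after ABA. That makes it at least 2.03-fold higher against a floor of 3 counts per library, and it was not tested. After ABA, ABI1 and PP2CA stood highest of the clade on the TPM scale, at 342 and 321 TPM, ahead of HAI1 at 176 TPM.

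**Figure D2:**
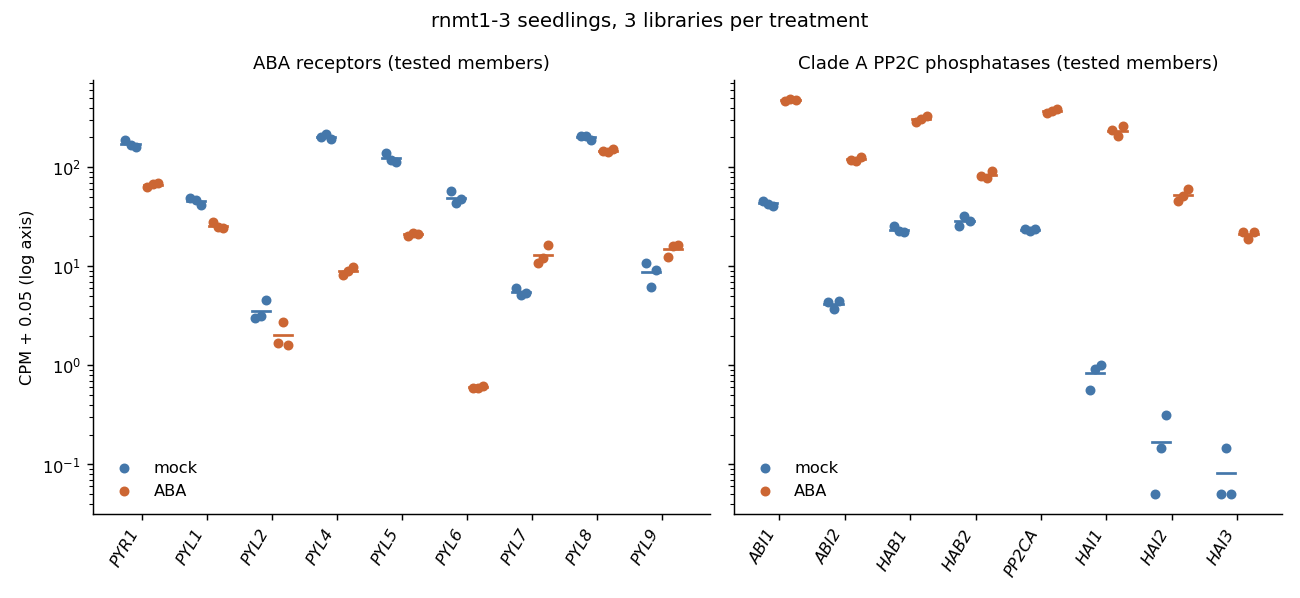
Level of each tested ABA receptor (left) and clade A PP2C gene (right) in the 3 mock (blue) and 3 ABA (orange) rnmt1-3 libraries, in CPM plus 0.05 on a log axis, with short lines at the means. PYL4, PYL5, PYL6 and PYR1 lie lower after ABA, PYL7 and PYL9 higher, and all 8 phosphatase genes lie higher with no overlap of treatments.

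The SnRK2 kinases changed little by comparison. Of 10 members, 3 rose (30%) and 1 fell (10%, near the 11.4% of all tested genes), with a median log2 fold change of 0.08. OST1, the kinase of guard cells, was at 17, 15.1 and 17.2 CPM in mock and at 25.8, 21.1 and 24.5 CPM after ABA (log2 fold change 0.55, SE 0.10, adjusted p = 0.000713). SNRK2.7 rose the most, from 6.18, 5.14 and 6.82 CPM to 28.6, 25.3 and 30.2 CPM (2.22), and SNRK2.9 rose by 0.73. SNRK2.2, which with OST1 and SNRK2.3 carries most ABA signalling, passed as a slight fall (-0.18, adjusted p = 0.0345), and this call was lost in 5 of the 6 fits that leave out a library. SNRK2.3 did not pass (-0.18, adjusted p = 0.222).

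Among the bZIP factors that bind the ABRE, 5 of 7 tested members rose. ABF3 was at 22, 22 and 23.2 CPM in mock and at 314, 335 and 358 CPM after ABA (log2 fold change 3.92, SE 0.07, adjusted p = 7.37e-15). ABF2 rose by 2.73, ABF4 by 1.14 and ABF1 by 0.91 on the log2 scale. ABI5, the factor that holds back seedling growth after germination, went from 2.91, 2.35 and 3.35 CPM to 14.3, 13.3 and 12.8 CPM (2.23). EEL (0.05) and AREB3 (-0.04) were not called, and DPBF2 had too few counts.

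Of 12 listed HD-Zip, NAC and MYB genes of the ABA response 11 rose over 2-fold, with a median log2 fold change of 4.04. HB-7 (3.68) and HB-12 (5.05), homeodomain factors of water deficit, were joined by HB6 (1.47), while HB5 was not called (-0.12). RD26, a NAC factor of dehydration, was at 7.96, 6.91 and 6.6 CPM in mock and at 148, 144 and 157 CPM after ABA (log2 fold change 4.40, SE 0.08, adjusted p = 8.39e-15). NAC019 rose by 5.78. MYB102 had 0, 0 and 0.088 CPM in mock and 16.1, 19.1 and 24.8 CPM after ABA, a count ratio of 625 with a counting interval of 173 to 5169. MYB41, MYB74 and MYB96, factors of cuticle and suberin lipids, also rose, MYB96 from 9.14, 11 and 11.1 CPM to 50.2, 46.8 and 52.7 CPM (2.26).

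Of the MAPKKK17/18 cascade, a kinase chain that ABA switches on through new synthesis of its first members, 3 of 7 genes rose. MAPKKK18 went from 0.459, 0.912 and 0.528 CPM to 23.2, 27.9 and 29.2 CPM (log2 fold change 5.40, SE 0.19, adjusted p = 1.14e-11), and MAPKKK17 rose by 3.32. At the far end of the chain MPK7 rose by 1.16, while the middle kinase MKK3 (0.39, adjusted p = 0.056) and MPK1, MPK2 and MPK14 were not called.

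Genes that make ABA and genes that remove it both rose. In synthesis, 4 of 6 tested members rose: NCED3, which cleaves carotenoids at the rate-limiting step in vegetative tissue, was at 0.868, 1.87 and 1.19 CPM in mock and at 15.3, 15.7 and 17 CPM after ABA (log2 fold change 3.61, SE 0.20, adjusted p = 1.50e-09). AAO3 (0.93), ABA1 (0.74) and ABA4 (0.41) rose less, and the ABA4 call was lost without mock replicate 2 and without ABA replicate 3 (adjusted p up to 0.101). ABA2 and ABA3 were not called, and NCED2, NCED5, NCED6 and NCED9 had too few counts to test. On the removal side all 4 ABA 8′-hydroxylase genes rose, CYP707A1 from 6.48, 6.1 and 9.51 CPM to 76.4, 74.1 and 76.8 CPM (log2 fold change 3.36, SE 0.12, adjusted p = 1.22e-11). CYP707A4 (3.08), CYP707A2 (2.58) and CYP707A3 (1.48) followed. UGT71C5, which attaches glucose to ABA, fell by 0.67, and the glucosidase genes that release ABA, BGLU18 and BGLU33, were not called (both 0.06). The exporter gene ABCG25 rose by 2.13, the importer gene NRT1.2 fell by 0.59, and the importer gene ABCG40 (0.67, adjusted p = 0.0175) lost its call in 5 alternatives. In all, 6 of 10 tested members of this group rose and 2 fell, with a median log2 fold change of 1.08.

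The RD, COR, KIN and LEA genes, which encode the protective proteins of dehydration and cold, all rose. Every one of the 19 listed members passed as higher and exceeded 2-fold, with a median log2 fold change of 3.97. RD29A was at 54.4, 49.7 and 49.3 CPM in mock and at 2559, 2548 and 2439 CPM after ABA. The treatments were far apart, with little spread inside each (log2 fold change 5.63, SE 0.07, adjusted p = 2.37e-16). COR47, a dehydrin gene that was already high in mock, went from 380, 305 and 290 CPM to 1890, 1723 and 1843 CPM (2.5). The dehydrin genes ERD10 (3.37), LTI30 (4.52), ERD14 (1.90) and RAB18 (4.95) rose as well. LEA4-5 was at 0.613, 0.624 and 0.176 CPM in mock and at 167, 149 and 172 CPM after ABA (log2 fold change 8.46, SE 0.16, adjusted p = 8.39e-15). LEA7 went from 0.204, 0.144 and 0.44 CPM to 68, 67.2 and 75.2 CPM (8.01). Both LEA genes thus changed from a handful of counts to a high level. RD29B, the neighbour of RD29A on chromosome 5, went from 0.51, 0.72 and 1.06 CPM to 25.7, 26.5 and 38 CPM (5.28). At the low end stood RD22 (1.27), COR15B (1.24) and LTP3 (1.51). EM1 and EM6, LEA genes of the seed, passed at levels of at most 2.52 CPM. KIN1 with KIN2 and LTP3 with LTP4 are near-identical neighbours, and how reads shared between them were counted is not given in the sources used here.

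The promoters of these genes can be read for the letters that ABA-linked factors are known to bind. The following 250 bases before the annotated start (RefSeq TAIR10.1) are written in the direction of the gene. They are shown for 4 genes that rose and for the 2 receptor genes with the largest falls, all chosen after seeing the values. Capitals mark ACGTG, the ABRE core, on either strand (CACGT on the strand shown), and ACCGAC or GCCGAC, the core of the dehydration-responsive element (DRE), on either strand. The G-box CACGTG contains ACGTG on both strands and counts once on each. The windows are chr5:21240467-21240716 (+) for RD29A, chr5:21236771-21237020 (+) for RD29B, chr1:19619474-19619723 (+) for LEA7, chr1:2282829-2283078 (-) for HAI2, chr2:16049668-16049917 (+) for PYL4 and chr2:16846195-16846444 (-) for PYL6.
RD29A: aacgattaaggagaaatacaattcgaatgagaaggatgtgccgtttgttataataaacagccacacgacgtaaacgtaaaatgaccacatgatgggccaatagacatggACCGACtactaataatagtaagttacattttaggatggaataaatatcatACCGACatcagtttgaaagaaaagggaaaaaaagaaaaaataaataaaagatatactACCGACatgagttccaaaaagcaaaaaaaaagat
RD29B: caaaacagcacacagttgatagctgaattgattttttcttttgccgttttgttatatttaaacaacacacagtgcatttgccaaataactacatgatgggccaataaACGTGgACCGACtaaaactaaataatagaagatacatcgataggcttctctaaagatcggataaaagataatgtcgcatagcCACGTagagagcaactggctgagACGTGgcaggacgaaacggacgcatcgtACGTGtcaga
LEA7: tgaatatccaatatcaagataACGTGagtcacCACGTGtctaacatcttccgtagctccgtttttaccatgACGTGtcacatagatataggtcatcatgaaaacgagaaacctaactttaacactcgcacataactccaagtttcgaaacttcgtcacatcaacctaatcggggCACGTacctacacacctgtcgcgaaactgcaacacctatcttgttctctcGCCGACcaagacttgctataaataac
HAI2: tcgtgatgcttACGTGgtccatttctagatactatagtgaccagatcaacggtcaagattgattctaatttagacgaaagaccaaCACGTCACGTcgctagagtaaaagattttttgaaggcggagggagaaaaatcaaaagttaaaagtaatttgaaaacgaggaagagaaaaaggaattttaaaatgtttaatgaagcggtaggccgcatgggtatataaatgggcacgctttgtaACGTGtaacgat
PYL4: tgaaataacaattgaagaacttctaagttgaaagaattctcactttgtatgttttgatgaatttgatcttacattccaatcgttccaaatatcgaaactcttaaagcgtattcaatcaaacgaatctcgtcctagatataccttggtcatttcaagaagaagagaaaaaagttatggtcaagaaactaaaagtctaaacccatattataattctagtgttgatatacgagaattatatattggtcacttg
PYL6: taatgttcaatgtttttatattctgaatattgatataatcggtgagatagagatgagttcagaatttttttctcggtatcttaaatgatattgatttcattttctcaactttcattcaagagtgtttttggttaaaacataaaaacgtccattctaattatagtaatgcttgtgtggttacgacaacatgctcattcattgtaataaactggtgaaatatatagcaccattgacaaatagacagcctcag

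The RD29A window held the DRE core 3 times and no ACGTG. RD29B held ACGTG 4 times and the DRE core once. LEA7 held ACGTG 5 times, of which a pair lies in 1 G-box, and the DRE core once. HAI2 held ACGTG 4 times and no DRE core. Neither motif was found in the windows of PYL4 and PYL6. For these genes, and for ACGTG in RD29A, this says only that the letters are not in these windows. The choice of windows does not stand for all risers and fallers. Among other listed risers LEA4-5 held ACGTG 4 times and RAB18 3 times, while HAI1, ABI1, HB-7, HB-12 and GOLS2 held none. The falling receptor gene PYR1 held it 1 time.

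Over all genes the share of promoters with these letters differed between the groups. Of the 170 genes that rose over 8-fold 66.5% held ACGTG in the window, of the 1003 that rose over 2-fold 45.9%, and of the 494 that fell over 2-fold 24.3%, against 23.9% of all 20074 tested genes with a full window. The G-box CACGTG stood in 40.6%, 22.9%, 6.07% and 7.45% of the same groups, and the DRE core in 19.4%, 13.1%, 3.64% and 7.84%. With windows of 500 bases, chosen after seeing the data, ACGTG was held by 76.5%, 60.4%, 39.3% and 36.2%. In the listed groups, 12 of 19 RD, COR, KIN and LEA genes and 5 of 8 tested PP2C genes held ACGTG, as did 2 of 9 tested receptors and 0 of 13 PIP aquaporins. Groups in which most members did not rise held it as well, with 8 of 11 tested JAZ genes, 8 of 19 light-harvesting genes and 4 of 8 root hair genes. A match is a description and does not show that a factor binds there.

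**Figure D3:**
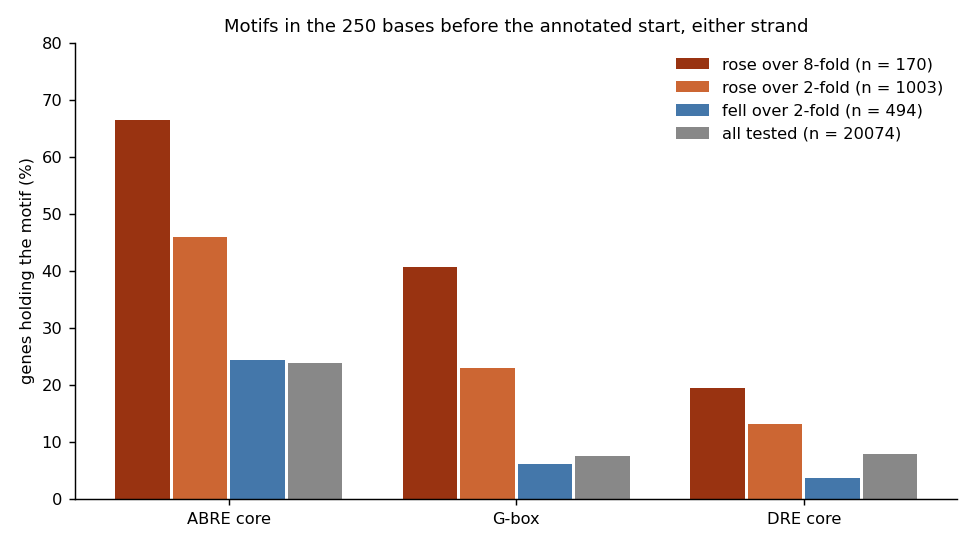
Share of genes (y axis, %) whose 250 bases before the annotated start hold the ABRE core ACGTG, the G-box CACGTG or the DRE core ACCGAC or GCCGAC on either strand, for genes that rose over 8-fold, rose over 2-fold or fell over 2-fold and for all tested genes. The bars of the risers are the tallest for each motif, and those of the fallers are close to or below the bars of all tested genes.

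Osmolyte genes moved towards synthesis. P5CS1, the enzyme that commits glutamate to proline, went from 14.8, 16.6 and 16.5 CPM to 212, 216 and 242 CPM (log2 fold change 3.82, SE 0.08, adjusted p = 1.83e-14), while its paralog P5CS2 was not called (-0.12). ERD5, the proline dehydrogenase that breaks proline down, fell from 163, 146 and 159 CPM to 77.5, 68.6 and 47.9 CPM (-1.26). In the raffinose branch GOLS2, a galactinol synthase gene, went from 0.408, 0.048 and 0.264 CPM to 53, 51.1 and 66.9 CPM (7.88), and GOLS1 (1.85) and RS5 (1.67) rose too. Of the 6 tested members 4 rose and 1 fell.

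Of 12 tested suberin genes, which build the lipid barrier of root endodermis, 8 rose and none passed as lower (1 at an unadjusted p under 0.05 in edgeR), with a median log2 fold change of 0.81. KCS2, an enzyme of fatty acid elongation, went from 0.664, 1.49 and 1.1 CPM to 9.73, 12.2 and 11.6 CPM (log2 fold change 3.36, SE 0.22, adjusted p = 1.78e-08). The transporter gene ABCG6 rose by 2.55 and the feruloyl transferase gene ASFT by 1.35. CYP86A1 (0.15), FAR5 (0.12), ABCG20 (0.19) and KCS20 (-0.17) were not called.

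The PIP aquaporins, water channels of the plasma membrane, moved by small steps at high level. Of 13 genes 10 rose and 2 fell, with a median log2 fold change of 0.59. PIP2A was at 449, 354 and 356 CPM in mock and at 930, 873 and 1034 CPM after ABA (log2 fold change 1.30, SE 0.09, adjusted p = 2.14e-08). PIP1B rose by 0.76 and RD28 by 1.12. PIP2;4 (-0.49) and PIP1;5 (-0.32) were the members that fell.

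Of 11 tested JAZ genes, repressors of jasmonate signalling, 3 rose and 3 fell, although the rise of JAZ3 (0.55) was lost in the 30-library fit (adjusted p = 0.244) and the fall of JAZ9 (-0.57) in 4 of 11 alternatives. JAZ12 went from 83.1, 84.5 and 77.7 CPM to 143, 142 and 157 CPM (0.86), and JAZ4 from 6.99, 7.39 and 7.48 CPM to 0.996, 0.839 and 1.04 CPM (log2 fold change -2.91, SE 0.21, adjusted p = 3.33e-08). Among 26 tested XTH genes, enzymes that loosen and rebuild xyloglucan in cell walls, 10 fell (38.5%) and 5 rose (19.2%). XTH33 (-2.71) and XTH13 (-2.19) fell the most and XTH19 rose the most (0.88). Of the SAUR genes named as such, small auxin-induced growth genes, 6 were tested, and SAUR15 (-2.09) and SAUR68 (-1.43) fell. The 16 tested IAA genes, auxin repressors, had 2 rises and 2 falls and a median of 0.05, close to the shares of 14.7% and 11.4% over all tested genes. In the root hair list of 8 genes the regulator RSL2 fell from 1.89, 0.912 and 2.02 CPM to 0.453, 0.444 and 0.469 CPM (-1.80, adjusted p = 0.00341), and the other 7 were not called. Cytosolic ribosomal protein genes, 111 of them tested, moved little, with 4 rises, 8 falls and a median of -0.07.

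Light-harvesting genes, which encode the antenna proteins of photosynthesis, did not pass in either direction. None of 19 tested members was called by edgeR or by DESeq2, and none had an unadjusted p under 0.05 in edgeR. Their log2 fold changes lay between -0.13 and 0.15. CAB1 was at 9085, 8708 and 7641 CPM in mock and at 8964, 8100 and 8758 CPM after ABA. Its treatments overlapped widely (0.03, SE 0.07, adjusted p = 0.789). Without mock replicate 1, 2 members passed as higher, and without mock replicate 3, 1 passed as lower. CAB1, CAB2 and CAB3 are close paralogs, and LHB1B2 had no counts next to its copy LHB1B1, so their separate values are uncertain.

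The genes of cap synthesis, cap binding and decapping lay between -0.16 and 0.22 in log2 fold change. DXO1 was at 45.1, 45.3 and 46.1 CPM in mock and at 47.6, 49.9 and 43.7 CPM after ABA (log2 fold change 0.06, SE 0.07, adjusted p = 0.591). The capping enzyme genes ARCP1 (-0.06) and ARCP2 (-0.13), the cap-binding genes CBP20 (-0.03) and ABH1 (-0.09) and the exonuclease gene XRN4 (0.09) were not called. Of 14 genes only DCP1, a decapping cofactor, passed, as a rise of 0.22 (adjusted p = 0.0299), and this call was lost in 7 of 11 alternatives.

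**Figure D4:**
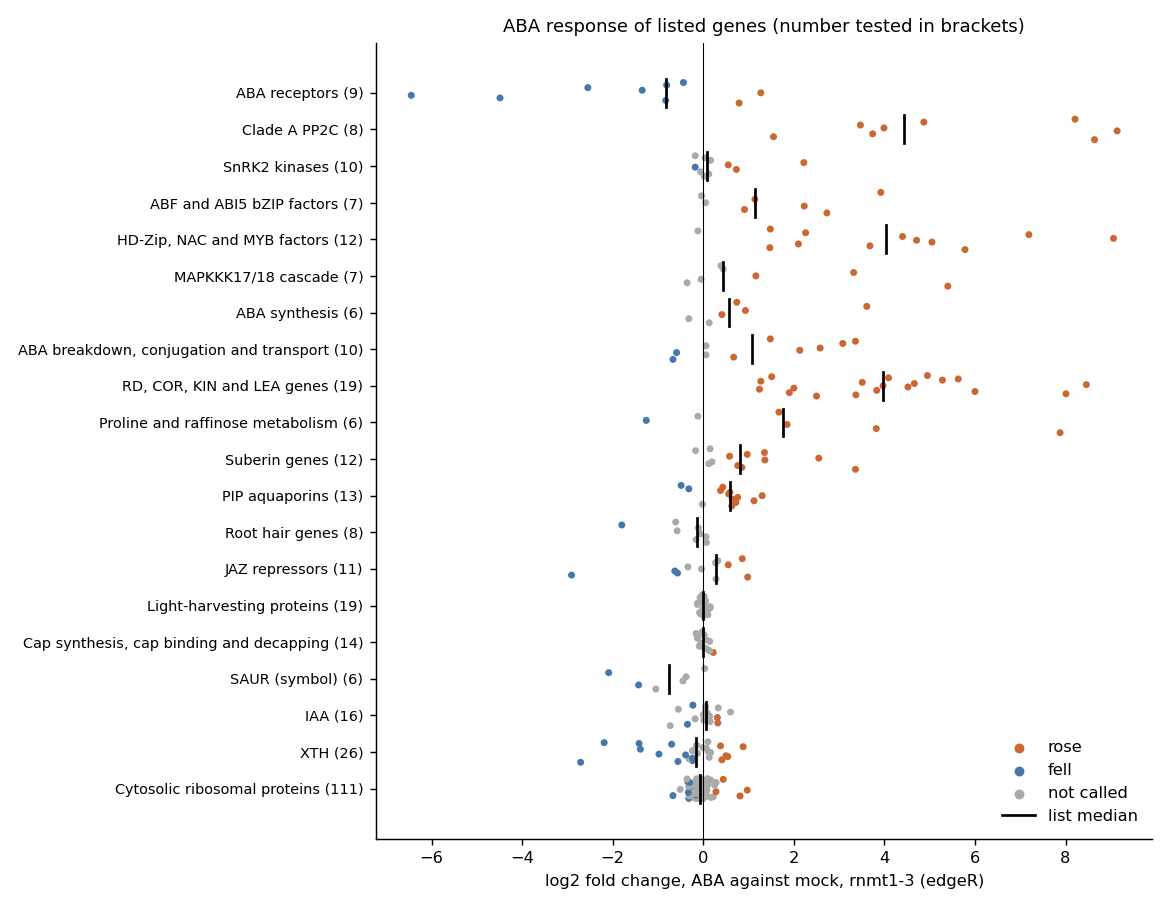
Log2 fold change (x axis, ABA against mock in rnmt1-3) of every tested member of each listed group (y axis, number tested in brackets), orange for members that rose, blue for members that fell, grey for members not called and a black line at the median of the group. The PP2C, RD, COR, KIN and LEA and HD-Zip, NAC and MYB groups lie far to the right, the receptors lie mostly to the left, and light-harvesting and cap genes lie at 0. Points of genes with almost no mock counts, such as HAI3, depend on the prior count of the fit.

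The genes with the largest rises across the whole table, by a rule of at least 1 CPM on average and no overlap of treatments, included HAI3, MYB102 and HAI2 described above. Of the other 7, AT1G04560, which encodes an AWPM-19-like membrane protein, had no counts in mock and 4.12, 3.6 and 5.37 CPM after ABA, so it was at least 30.5-fold higher against the floor of 3 counts per library. AT3G07255 (at least 24.1-fold), AT2G17680 (at least 18.9-fold), AOX2, an alternative oxidase of mitochondria (at least 17.7-fold), and AT5G62800 (at least 17.7-fold) were likewise without counts in mock. AT3G03341, annotated as cold-regulated, went from 0.153, 0.048 and 0.044 CPM to 48, 44.6 and 64.1 CPM, a count ratio of 656 with a counting interval of 281 to 2020. AT3G27250 had a ratio of 831, with an interval of 149 to 32863.

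Among the 10 largest falls by the same rule, PYL6 and PYL4 were followed by CRK30, a receptor-like kinase gene, which went from 39.2, 47.8 and 47.6 CPM to 3.21, 3.06 and 1.82 CPM (log2 fold change -4.03, SE 0.15, adjusted p = 2.25e-11). ORA59, a factor that integrates jasmonate and ethylene signals, went from 18.6, 18.8 and 17.3 CPM to 1.31, 0.888 and 1.72 CPM (-3.79). CYP735A2, which makes trans-zeatin cytokinins, went from 8.58, 8.26 and 8.72 CPM to 1.09, 1.13 and 1.04 CPM (-2.95). JAZ4 is described above, and AT2G28690 (-3.79), AT2G34010 (-2.85), AT4G18205 (-2.85) and the SAUR-like gene AT4G34810 (-2.83) complete the list.

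The response of rnmt1-3 was then set beside that of WT, which used separate mock and ABA libraries. WT had 2007 genes that rose (10%) and 1293 that fell (6.47%) of 19973 tested, and over 2-fold 1135 (5.68%) and 527 (2.64%). Across the 19683 genes tested in both, Pearson's r of the log2 fold changes was 0.887, which is a description across genes that are not independent. Among these, 960 genes rose over 2-fold in rnmt1-3 and 1125 in WT, and 799 were shared, which is 83.2% of the former and 71% of the latter. Falls over 2-fold numbered 465 in rnmt1-3 and 508 in WT, and 286 were shared, 61.5% and 56.3%. With WT fitted without its mock replicate 1, an alternative added after seeing the data, 2888 genes rose and 2185 fell in WT, so that this library moved the count of falls by more than 1.5 times. The r across genes was then 0.883, and 828 rises (84.5% of those in rnmt1-3 and 68.6% of those in WT) and 314 falls (66% and 51.4%) over 2-fold were shared.

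As a measure of size, the signed log2 change was averaged over the 1651 genes that changed over 2-fold in dxo1/NTE (1055 rises, 5.22% of its tested genes, and 596 falls, 2.95%). Neither rnmt1-3 nor WT chose these genes, but the study places the transcriptome of dxo1/NTE close to WT. The set may therefore favour WT. The 3 values of a genotype share the mean of its mock libraries. It was 1.36, 1.35 and 1.41 in the ABA libraries of rnmt1-3 and 1.51, 1.5 and 1.54 in those of WT. Every rnmt1-3 library was thus below every WT library. For the 1055 rises alone the values were 1.57, 1.52 and 1.60 in rnmt1-3 and 1.72, 1.72 and 1.79 in WT. For the 596 falls they were 1.00, 1.04 and 1.08 against 1.14, 1.12 and 1.10. The WT mock libraries themselves lay at 0.13, -0.03 and -0.11 for these falls, which is wider than that gap. Over all 1651 genes the score was 1.22, 1.29 and 1.32 in dxo1 and 1.29, 1.32 and 1.34 in dxo1/cDXO1. Without WT mock replicate 1 the WT values became 1.53, 1.52 and 1.55.

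Gene by gene the test of the difference, fitted on 12 libraries, called 26 of 20613 genes (0.126%), 18 (0.0873%) with a lower and 8 (0.0388%) with a higher log2 response in rnmt1-3. At an unadjusted p under 0.05 there were 1521. In 25 of the 26 the response was smaller in size in rnmt1-3, the exception being the ubiquitin ligase gene PUB19, which rose by 8.44 there and by 6.28 in WT. Without WT mock replicate 1 the count became 203, which included all 26, and 178 of the 203 were smaller in rnmt1-3.

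In 18 genes the rise in WT was larger than the response in rnmt1-3. AT2G47780, which encodes a rubber elongation factor protein of lipid droplets, was at 3.62, 3.22 and 2.82 CPM in mock rnmt1-3 and at 42.4, 44.8 and 50.5 CPM after ABA. In WT it was at 0.219, 0.156 and 0.219 CPM and at 29.1, 30.2 and 31 CPM. The ABA levels were therefore higher in rnmt1-3, and the smaller response came with a higher mock level (difference of log2 responses -3.38, SE 0.27, adjusted p = 8.91e-05). The LEA gene AT3G02480 had the same layout, at 4.39, 6.43 and 4.49 CPM in mock rnmt1-3 against 0.11, 0.521 and 0.932 CPM in mock WT, with 47.5 to 64.2 CPM after ABA in both genotypes (difference -3.30). CYP81D11, a cytochrome P450 gene, was at 33.8, 27.4 and 19.5 CPM in mock rnmt1-3 against 2.69, 3.49 and 3.07 CPM in mock WT (difference -2.26). After ABA it was at 52.2, 37 and 35.2 CPM against 27.3, 20.9 and 20.3 CPM, so it was higher in rnmt1-3 in both treatments. Its own rise in rnmt1-3 (0.64) lost its call with DESeq2 and without ABA replicate 1. ABCG16, a half-size ABC transporter of the pollen wall, went from 6.18, 7.54 and 5.94 CPM to 10.6, 13 and 12.9 CPM in rnmt1-3 and from 4.28, 3.54 and 3.67 CPM to 21.7, 24.2 and 25.7 CPM in WT. Here the mock levels were higher and the ABA levels lower in rnmt1-3 (difference -1.76, SE 0.20, adjusted p = 0.00287). The cation exchanger gene CHX17 had the same layout, from 5.41, 5.81 and 6.6 CPM to 18, 17.4 and 23.9 CPM in rnmt1-3 and from 3.02, 3.44 and 3.24 CPM to 32.2, 32.3 and 38.4 CPM in WT (difference -1.68). LTP3 (difference -2.0) and PIP1;4 (difference -0.89) were the members of the listed groups among them, and their calls were lost in 9 and 7 of 17 alternatives.

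The 7 called falls that were smaller in rnmt1-3 included PYL6. Its ABA libraries in WT held 1, 2 and 1 counts, against 12, 11 and 11 in rnmt1-3, while the mock levels overlapped at 45.7, 49.2 and 46.7 CPM in WT. The summed counts gave a ratio of mock to ABA of 694 in WT (95% counting interval 271 to 2548) and 88.6 in rnmt1-3 (63.2 to 128). The difference of log2 responses was 2.85 (SE 0.45, adjusted p = 0.0202). It lost its call in 7 of 17 alternatives. ACL, an acetone-cyanohydrin lyase gene, fell from 183, 177 and 165 CPM to 93.7, 92.4 and 88 CPM in rnmt1-3 and from 150, 128 and 136 CPM to 27.4, 28.8 and 29 CPM in WT (difference 1.33, SE 0.12, adjusted p = 0.000127). AMT1;2, an ammonium transporter gene, fell by 0.68 in rnmt1-3 and by 2.85 in WT (difference 2.18). AT4G21870 (difference 1.72), which encodes an HSP20-like chaperone, and the desaturase gene AT3G02620 (1.25) were also smaller falls. The call for AT3G02620 was lost in 9 of 17 alternatives, and that for AT4G21870 without WT ABA replicate 2 and without WT ABA replicate 3 (adjusted p up to 0.0617). In rnmt1-3, dxo1, dxo1/cDXO1 and WT the log2 responses were -6.45, -6.34, -5.60 and -9.28 for PYL6. They were -0.93, -1.04, -0.99 and -2.25 for ACL and -0.68, -0.97, -0.96 and -2.85 for AMT1;2. For AT4G21870 they were -2.48, -2.59, -2.32 and -4.20, and for AT3G02620 -0.68, -0.83, -0.60 and -1.92. In these genes the falls in dxo1 and dxo1/cDXO1 were thus also smaller than in WT. The other receptors had differences between -0.10 and 0.88, none called, with PYL5 (0.88, adjusted p = 0.0761) and PYL4 (0.88, adjusted p = 0.109) the nearest.

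**Figure D5:**
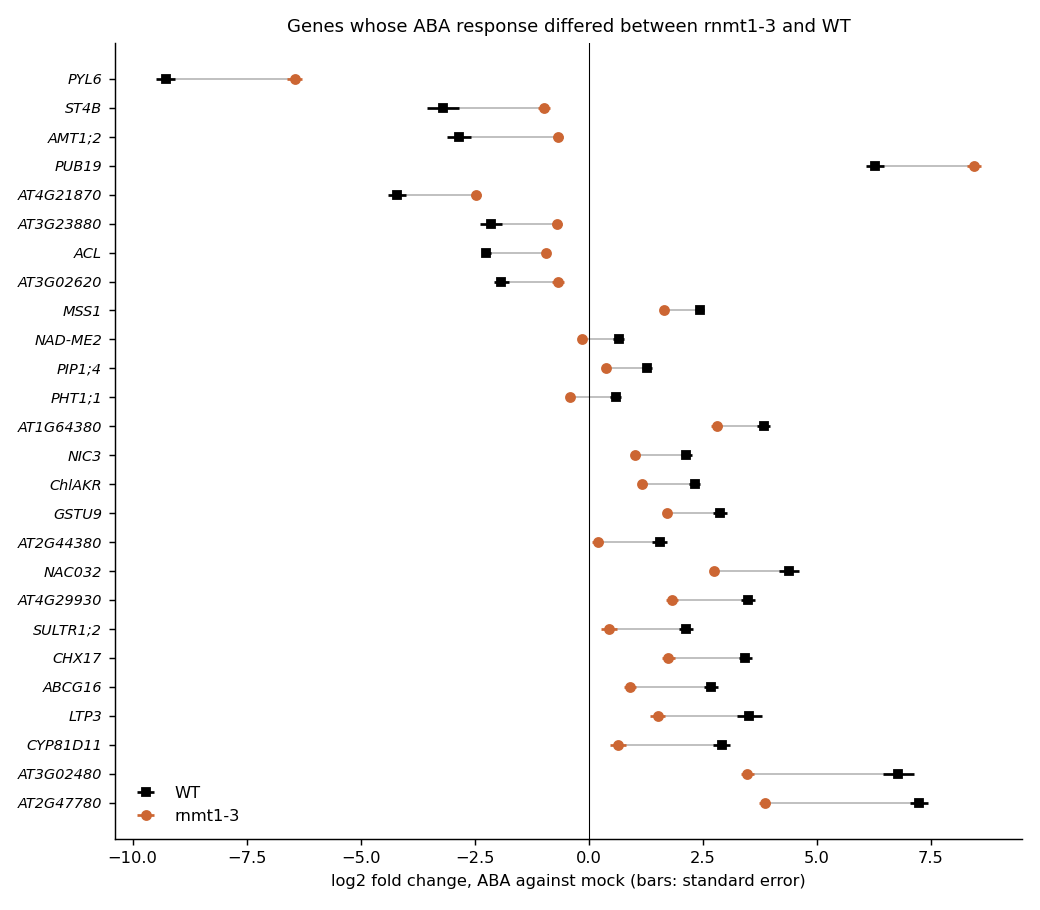
Log2 fold change after ABA (x axis) of the 26 genes (y axis) whose response differed between rnmt1-3 (orange circles) and WT (black squares), with bars of 1 standard error. The circle lies nearer to 0 than the square for 25 genes and farther from 0 for PUB19, and for NAD-ME2 and PHT1;1 the symbols lie on opposite sides of 0.

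In the PP2C, SnRK2, bZIP, HD-Zip, NAC and MYB, cascade, ABA synthesis, ABA removal, proline and raffinose, suberin and cap groups none of 93 tested members was called by edgeR as different from WT. Over all 20613 tested genes the share called was 0.126%, so the lack of a call among 93 is near that share. At an unadjusted p under 0.05 there were 18, of which 17 had the smaller response in rnmt1-3. Over all 20613 tested genes there were 1521, and how many of those had the smaller response was not counted. The lowest adjusted p was 0.108, for the suberin gene KCS20 (difference -0.51). DESeq2 called 2 members, KCS20 and the suberin gene GPAT7, and 6 members were called by edgeR without WT mock replicate 1, namely HB-7, GOLS1, OST1, GPAT7, ASFT and KCS20. Over all tested genes DESeq2 called 121, and edgeR without that library called 203. For single genes the log2 response was 3.47 in rnmt1-3 and 3.63 in WT for ABI1, and 3.92 and 3.94 for ABF3. The group median for the PP2C genes was 4.43 in rnmt1-3 and 4.37 in WT (4.79 without WT mock replicate 1). For proline and raffinose genes it was 1.76 against 2.28 (2.56 without that library), for suberin genes 0.81 against 1.05 (1.2), for the receptors -0.83 against -1.46 (-1.08), and for the 18 RD, COR, KIN and LEA genes tested in both 3.96 against 4.83 (4.59). The bZIP genes had 1.14 against 0.96 (0.95), the ABA removal genes 1.08 against 0.99 (0.97) and the SnRK2 genes 0.08 against 0.03 (0.00). ABA synthesis had 0.57 against 0.54 (0.57), HD-Zip, NAC and MYB genes 4.04 against 4.17 (4.35) and cap genes 0.00 against 0.00 (0.03). The cascade had 0.77 against 0.93 over 6 genes, and 0.44 against 0.53 over 7 genes without that library. These medians were not tested, and they did not all differ in one direction. Light-harvesting genes had a median of 0.00 in rnmt1-3 and -0.43 in WT (-0.37 without WT mock replicate 1), with no difference called by edgeR or DESeq2 (lowest adjusted p = 0.653 in edgeR), and 5 of 19 members at an unadjusted p under 0.05 in edgeR. That number was 13 in the 30-library fit and 2 without WT mock replicate 1. Over all tested genes there were 1521 in the main fit, 2505 in the 30-library fit and 2305 without WT mock replicate 1. A p that misses the threshold does not show that the responses were alike.

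Against the other capping mutants edgeR called few genes as different in response, and a gene that was not called may still differ. The main tests called 3 of 20689 genes (0.0145%) against dxo1 and 1 of 20630 (0.00485%) against dxo1/cDXO1. DESeq2 called 28 and 16, and edgeR with no filter on low counts 33 and 11. The main tests share the rnmt1-3 libraries with each other and with the test against WT. NAD-ME2, a mitochondrial malic enzyme gene, was called in all 3. It was at 98.4, 102 and 103 CPM in mock rnmt1-3 and at 90.9, 91.4 and 91.5 CPM after ABA. Its own response was not called (-0.14, adjusted p = 0.0914), while in WT it went from 130, 99.9 and 104 CPM to 162, 181 and 170 CPM. The log2 response was 0.65 in WT, 0.53 in dxo1 and 0.55 in dxo1/cDXO1. The differences were -0.78 from WT (adjusted p = 0.0399), -0.67 from dxo1 (adjusted p = 0.000332) and -0.68 from dxo1/cDXO1 (adjusted p = 0.0014). The call against WT was lost in 11 of 17 alternatives. Against dxo1 the auxin-conjugating gene DFL1 (difference 0.74, adjusted p = 0.0473) and the lipase gene AT3G48460 (0.89, adjusted p = 0.0362) were also called, and each lost its call in 10 of 17 alternatives. DFL1 went from 16.4, 20.1 and 17.7 CPM to 112, 97.1 and 91.7 CPM in rnmt1-3 (2.48).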

How the data were processed

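Poly(A) RNA of whole seedlings was sequenced, and the authors deposited 1 table of raw read counts per gene with a gene length column. Per the labels and the study's methods, reads were checked with FastQC 0.11.8, aligned to TAIR10 with HISAT2 2.2.1 and counted with featureCounts of Subread 2.0.8. The annotation version, strand setting and treatment of multi-mapped reads are not given in the sources used here. No column of sample values was left out (0). The study itself called genes at an unadjusted p under 0.05 and over 2-fold.

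The 6 rnmt1-3 libraries were fitted alone in R 4.3.3 with edgeR 4.0.16 (quasi-likelihood test, TMM scaling, genes kept with a minimum count of 10 and a minimum total of 15), and p-values were adjusted over the 20140 tested genes. Differences of response were tested as an interaction on 12 libraries. CPM values share 1 TMM scale over all 30 libraries, and TPM values use the deposited gene length. Counting intervals and floors (95%, 3 counts per library) cover counting error only. The study calls its samples biological replicates but the labels name no separate cultures, so p-values measure the spread between these samples, which may be technical.

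Alternatives were DESeq2 1.42.0, RLE scaling, no filter on low counts, a fit over 30 libraries, a replicate block and each library left out. Windows of 500 bases, families taken from the annotation and a WT fit without mock replicate 1 were added after seeing the data. The promoters printed above were also chosen after the values were seen. Members and gene lists were chosen with earlier results of these data known. Named genes were the 10 largest rises and 10 largest falls (adjusted p under 0.05, mean of at least 1 CPM, no overlap of treatments), the 5 differences from WT with the smallest p in each direction (over 2-fold, mean of at least 1 CPM) and any list member. Genes outside this rule (PUB19, PHT1;1, NAD-ME2, DFL1 and AT3G48460) were named after their values were seen. Promoter windows were read from the RefSeq TAIR10.1 genome, in which 32548 of 32833 genes were found. The tests were checked on simulated data. There the test of the response called 91.5% of genes given a 2-fold change, and the test of the difference from WT called 60%. The simulation left out genes of low mean count and drew each library independently. It held no library that stood apart as WT mock replicate 1 did, so the shares for such data were not measured.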

Additional observations from a re-analysis of the deposited data

Results flagged for a closer look

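Some responses to ABA differed between rnmt1-3 and another genotype by the interaction test of edgeR (adjusted p under 0.05), and the values below are differences of log2 responses, rnmt1-3 minus the other genotype. Against WT, smaller rises were found for AT2G47780 (-3.38), the LEA gene AT3G02480 (-3.30), CYP81D11 (-2.26), LTP3 (-2.0), ABCG16 (-1.76), CHX17 (-1.68) and PIP1;4 (-0.89). The rise of CYP81D11 within rnmt1-3 was itself not called with DESeq2 or without ABA replicate 1. Smaller falls were found for PYL6 (2.85), AMT1;2 (2.18), AT4G21870 (1.72), ACL (1.33) and AT3G02620 (1.25). For all of these rises and falls the responses of dxo1 and dxo1/cDXO1 were also smaller in size than that of WT. NAD-ME2, which rose in WT, dxo1 and dxo1/cDXO1 and was not called in rnmt1-3, differed from WT by -0.78, from dxo1 by -0.67 and from dxo1/cDXO1 by -0.68. Against dxo1, larger rises were found for DFL1 (0.74) and AT3G48460 (0.89). WT mock replicate 1 stands apart from the other WT mock libraries and enters every WT value, and the differences from WT were also called without it. Other alternatives ended some of these calls: of 17, PYL6 and PIP1;4 lost theirs in 7, LTP3 and AT3G02620 in 9, NAD-ME2 against WT in 11, AT4G21870 in 2, and DFL1 and AT3G48460 in 10.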

How the results depend on the processing

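The counts of genes that rose (2961) and fell (2302) stayed within 1.5 times of themselves under DESeq2, RLE scaling, no filter, the 30-library fit and the replicate block, which gave 3044 and 2314, and with 1 library left out, from 2551 to 2861 and from 1837 to 2176. Requiring 2-fold gave 1003 and 494, and the study's unadjusted threshold 1034 and 534. Same-numbered libraries did not deviate together (correlations 0.0727, 0.00823 and -0.00344), so the block was not used. The 26 differences from WT became 121 with DESeq2, 112 in the 30-library fit, 13 with the replicate block, and 10 (without WT ABA replicate 2) to 203 (without WT mock replicate 1) with 1 library left out. The 3 differences from dxo1 became 28 with DESeq2, 33 with no filter, 1 in the 30-library fit and 1 to 9 with 1 library left out. The 1 difference from dxo1/cDXO1 became 16 with DESeq2, 11 with no filter, 2 with the replicate block and 1 to 4 with 1 library left out. For the 131 called genes named or listed, 1403 of 1441 alternative values kept the call, 38 lost it (in 11 genes) and 0 reversed. For 17 called differences, 224 of 289 kept it and 65 lost it. LHCB2.3, not called (-0.02), was at 0.32 (adjusted p = 0.0475, edgeR) without mock replicate 1 and at -0.24 without mock replicate 3. The cause was not tested in any of these.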

Other observations

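Further gene families, taken from annotated names after values had been seen, also moved under ABA in rnmt1-3, and their counts are descriptions to be read against 14.7% of tested genes that rose and 11.4% that fell. Of 40 tested genes annotated as LEA proteins 23 rose and 4 fell, with a median log2 fold change of 1.88. LEA14 went from 70.7, 65 and 59.2 CPM to 308, 277 and 272 CPM, and AT3G17520 from 0.357, 0.048 and 0.132 CPM to 40.8, 37.3 and 50.8 CPM. Neither gene overlapped between treatments. Of 85 MYB factors 34 rose and 9 fell, among them MYB3 (from 17.2, 17.7 and 17.6 CPM to 89.9, 89.8 and 116 CPM), and of 60 NAC factors 19 rose and 4 fell. NAC032, a stress-linked NAC factor, went from 31.3, 24.5 and 23.8 CPM to 169, 171 and 190 CPM in rnmt1-3 and from 9.55, 5.26 and 5.43 CPM to 139, 143 and 134 CPM in WT. Both its mock and its ABA levels were higher in rnmt1-3, and its log2 response was smaller (difference -1.63). Of 8 tested genes of trehalose synthesis 6 rose, TPS11 by 1.80. WRKY factors, which are known for defence, split into 15 rises and 11 falls of 51, and WRKY18 went from 45.1, 40.5 and 61 CPM to 11.1, 10.5 and 9.59 CPM (-2.22). Of 16 B-box factors 1 fell and 4 rose, BBX31 from 0.204, 0.144 and 0.132 CPM to 3.57, 3.7 and 4.33 CPM (4.57).

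Of 42 tested SAUR-like auxin genes 14 fell and 2 rose, with a median of -0.45. Of 23 expansins, proteins that loosen cell walls, 11 fell and 5 rose. EXPA1 went from 126, 124 and 100 CPM to 23.6, 24.4 and 18.2 CPM (-2.39), with no overlap, while EXPA16 rose by 1.67. Of 150 leucine-rich repeat kinases 43 fell and 13 rose, and the flagellin receptor gene FLS2 fell by 0.79 on the log2 scale. Of 6 type-A response regulators of cytokinin found by annotated name, which may not be the whole family, 1 rose and 3 fell. The falls were ARR3 from 0.817, 0.96 and 0.484 CPM to 0, 0.148 and 0 CPM, ARR6 by 0.96 and ARR7 by 0.60.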
